A study of Arabidopsis thaliana with 12 samples.

Results

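The comparison described here is that of embryos of the Arabidopsis thaliana line Atsdr4l-5 dig2 with embryos of the wild type Col-0, in dissected seeds. It used the 6 libraries labelled as embryo out of 12 in the series, 3 per genotype, chosen by genotype and tissue alone. Of 32833 gene entries, 16238 had enough reads in embryos or seed coats to be tested. All plants grew under 16 h light at 23 °C and 8 h dark at 18 °C. Seeds of both genotypes were taken about 18 days after pollination, held for 2 days at room temperature and, after 1 to 2 h of imbibition, opened to free the embryo from the seed coat. The mutant carries lesions named for AtSDR4L and DIG2, and the sources used here do not give the type of either lesion. The remaining 6 libraries, seed coats of the same seeds, entered the filter on low counts, the scaling and the estimate of the spread. They also gave the levels of tissue markers and showed whether a change differed between the tissues, which it did for 932 genes (5.74%).

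SDR4-like and DIG proteins belong to a small plant family of transcriptional repressors that take part in seed dormancy and in abscisic acid responses. An Arabidopsis embryo ends its growth by storing protein and oil, losing its chlorophyll and making protective proteins that let it survive drying, a programme driven by abscisic acid. On imbibition the programme is shut down, and transcripts for translation, reserve use and growth take its place.

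Each Col-0 embryo library held 14003564 to 15047509 reads on genes and each mutant embryo library 13927944 to 17619031. Log2 CPM of libraries of the same genotype correlated at 0.973 to 0.991 and of different genotypes at 0.905 to 0.927. Along the first principal component, with 75.3% of the variance, the genotypes were parted, with Col-0 at -66.5 to -56.5 and mutant at 51.6 to 66.0. The second, with 13% of the variance, set the mutant library numbered 2 (45.3) apart from mutant 1 (-26.7) and mutant 3 (-12.9). That library also had the most genes at least 2-fold from the mean of its genotype, 179 of 11099, against 2 to 86 in the others. DIG2, taken as AT5G50360 from general knowledge because the reference annotation names no locus so, stood at 76.3, 129 and 194 CPM in Col-0 and 144, 115 and 144 CPM in the mutant, which overlapped (log2 0.01, adjusted p = 0.977). AtSDR4L was not tied to a locus. In the family, 5 of 6 tested members rose and none fell, among them DIG1 (AT3G48510, log2 2.63, adjusted p = 6.76e-05) and AT5G40800 (log2 5.28, adjusted p = 7.25e-07).

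Markers of the tissues around the embryo were compared with their level in the seed coat libraries. BAN, a gene of seed coat tannin synthesis, had 1 read in the 6 embryo libraries and 345 in the Col-0 seed coat libraries, and TT10 had 0 and 35. The endosperm genes ZOU, FIS2, MEA, PHE1 and FWA had 0 reads in all 6 embryo libraries, but no more than 10 in the Col-0 seed coat libraries, so they do not bear on endosperm in the embryo samples. EPR1, an abundant extensin-like gene of the endosperm, reached 172, 196 and 180 CPM in Col-0 and 189, 118 and 230 CPM in mutant embryos, beside a mean of 154346 CPM in Col-0 seed coats, and its embryo values overlapped (adjusted p = 0.941). Of the endosperm markers, 3 of 8 were tested and 1 rose, and of the seed coat markers, 7 of 10 were tested, 1 rose and 1 fell. Summed, the endosperm markers ranged from 174 to 199 CPM in Col-0 and 137 to 250 CPM in mutant embryos, and the seed coat markers from 242 to 321 and from 134 to 159 CPM. Most of the latter sum was ARA12, a subtilase, at 302, 308 and 231 CPM in Col-0 and 148, 119 and 138 CPM in mutant embryos, beside a mean of 249 CPM in Col-0 seed coats. The same sum was 245 to 291 CPM in Col-0 seed coats, so it does not tell the tissues apart. Among markers of the embryo, 8 of 10 were tested, 5 fell and 1 rose, and WOX5 had 0 reads. In whole embryos, fewer cells of a type and less RNA per cell cannot be told apart.

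Transcript levels differed widely between the genotypes. At an adjusted p under 0.05, 7610 genes (46.9%) differed, 4129 higher (25.4%) and 3481 lower (21.4%). A change of at least 2-fold was found for 1730 higher genes (10.7%) and 1274 lower ones (7.85%), at least 8-fold for 261 and 153, and at least 32-fold for 72 and 26. For 57.3% of genes the mutant and Col-0 values were without overlap. Levels are CPM scaled by the TMM method, so every change is relative to the bulk of genes. With total reads as the only scaling, the log2 change of the median gene was -0.35, and 2296 genes rose and 6882 fell. The majority of higher genes also turned with RLE scaling, the size factors of DESeq2 (3785 higher, 3846 lower), and with embryo libraries only (3603 and 3882). Called genes were spread evenly over the 5 chromosomes, from 45.5% of tested genes on chromosome 4 to 48.0% on chromosome 3.

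**Figure D1:**
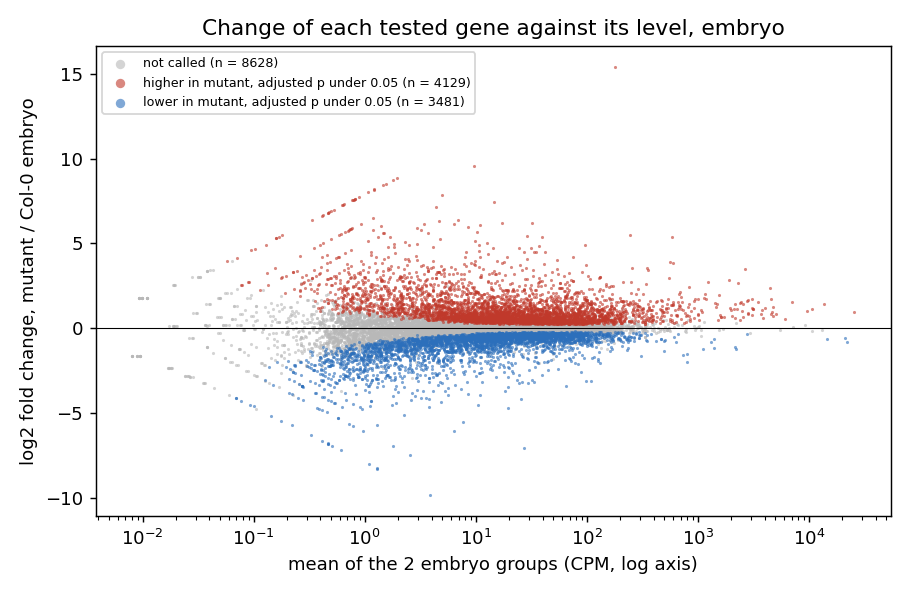
Each point is 1 of the 16238 tested genes, with the mean of the embryo groups (CPM, log axis) across and the log2 fold change of mutant over Col-0 up, coloured by the call. Called genes lie on both sides of 0 at most levels, and the most abundant ones lie mainly above it.

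The direction of change depended on how abundant a transcript was. Of the 84 genes with a mean of at least 1000 CPM over the 6 embryo libraries, 60 rose and 10 fell, with a median log2 change of 0.84. From 100 to 1000 CPM, 505 of 1101 rose and 184 fell. Between 1 and 10 CPM the directions were nearly even, with 1175 higher and 1278 lower among 5790 genes. The 100 most abundant genes of each library took 37.2, 38.8 and 39.9% of gene reads in Col-0 libraries and 44.5, 41.1 and 45.3% in mutant ones. These shares did not overlap (exact permutation test, two-sided, p = 0.10, the smallest that 3 against 3 can give). The 10 most abundant took 19.0 ± 0.236% in Col-0 and 16.4 ± 0.956% in mutant libraries (SD, n = 3; exact permutation p = 0.10).

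**Figure D2:**
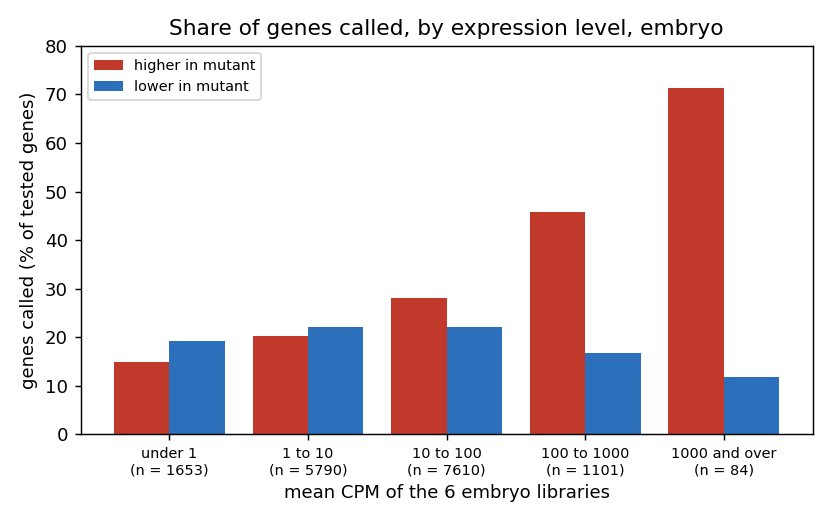
Bars give the share of tested genes called higher or lower in mutant embryos (%), by mean CPM of the 6 embryo libraries. In the class of 1000 CPM and over, 83.3% were called and the bar for higher genes is the taller, while below 10 CPM both bars are of near height.

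Named transcripts show what filled the top of these libraries. RAB18 (AT5G66400), a dehydrin that accumulates under abscisic acid, stood at 12753, 16656 and 22866 CPM in Col-0 and 34454, 30125 and 37671 CPM in the mutant. OLEO1 (AT4G25140), an oleosin coating oil bodies, stood at 6522, 7307 and 8540 CPM and at 20959, 18332 and 20545 CPM. Both rose (log2 0.97, adjusted p = 0.00423, and log2 1.42, adjusted p = 2.3e-05). For both, every mutant library lay above every Col-0 library, a condition for all genes named by change in CPM. Storage proteins were among both the largest losses and the largest gains in CPM. The albumin SESA5 (AT5G54740) stood at 28113, 26955 and 29477 CPM in Col-0 and 16080, 15533 and 15958 CPM in the mutant. Its groups did not overlap, and it fell by 0.83 on the log2 scale (adjusted p = 0.00129). The vicilin-like PAP85 (AT3G22640) fell by 0.59 (adjusted p = 0.0123; 0.0509 without mutant library 2), and the cruciferin CRU2 (AT1G03880) fell by 1.25 (adjusted p = 0.00224). Another albumin, SESA3 (AT4G27160), stood at 1110, 1922 and 2322 CPM in Col-0 and 5367, 5192 and 5000 CPM in the mutant. SESA3 rose without overlap (log2 1.54, adjusted p = 0.00146).

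Promoter sequences were set beside the direction of change. Abscisic acid response elements share the core ACGTG, which lies in the G-box CACGTG bound by bZIP factors, B3 factors of seed maturation bind the RY core CATGCA, and the telo-box AAACCCTA is frequent upstream of genes for translation. The first 4 promoters that follow belong to genes that rose and the last, NOP5-1, to a gene that fell. They display these elements in genes described further on, and capitals mark ACGTG, the RY core and the telo-box, read on either strand. Each run is the 250 bases before the annotated gene start, 5′ to 3′ on the strand of the gene, from the RefSeq copy of TAIR10.1.
PUB19 (chr1:22198016-22198265, + strand): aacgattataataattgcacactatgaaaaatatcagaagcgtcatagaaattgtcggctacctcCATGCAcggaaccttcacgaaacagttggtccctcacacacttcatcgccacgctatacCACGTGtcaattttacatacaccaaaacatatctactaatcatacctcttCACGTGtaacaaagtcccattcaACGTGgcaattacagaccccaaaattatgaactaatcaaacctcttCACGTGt
LEA7 (chr1:19619474-19619723, + strand): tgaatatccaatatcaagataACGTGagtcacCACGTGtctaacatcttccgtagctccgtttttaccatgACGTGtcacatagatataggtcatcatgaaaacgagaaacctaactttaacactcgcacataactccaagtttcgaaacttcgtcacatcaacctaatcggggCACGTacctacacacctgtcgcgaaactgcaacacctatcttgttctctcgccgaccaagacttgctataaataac
NYE2 (chr4:7155900-7156149, + strand): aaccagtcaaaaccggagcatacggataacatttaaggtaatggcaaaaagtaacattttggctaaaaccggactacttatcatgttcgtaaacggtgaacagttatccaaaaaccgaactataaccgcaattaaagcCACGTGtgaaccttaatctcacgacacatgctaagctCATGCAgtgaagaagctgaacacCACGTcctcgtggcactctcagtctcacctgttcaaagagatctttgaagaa
TIP3;1 (chr1:27521694-27521943, + strand): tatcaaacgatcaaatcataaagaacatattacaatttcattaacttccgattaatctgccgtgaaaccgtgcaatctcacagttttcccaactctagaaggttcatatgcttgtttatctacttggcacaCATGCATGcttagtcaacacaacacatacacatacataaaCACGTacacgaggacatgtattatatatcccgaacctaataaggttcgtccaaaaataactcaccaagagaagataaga
NOP5-1 (chr5:9540611-9540860, + strand): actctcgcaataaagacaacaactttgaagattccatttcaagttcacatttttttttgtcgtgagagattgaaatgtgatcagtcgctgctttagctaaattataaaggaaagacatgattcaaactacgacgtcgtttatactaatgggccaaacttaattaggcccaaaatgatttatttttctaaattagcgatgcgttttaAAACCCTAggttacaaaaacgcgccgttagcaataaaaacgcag

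The PUB19 promoter held 7 ACGTG matches, both strands counted, which include 3 copies of the palindrome CACGTG, and 1 CATGCA. That of LEA7 held 5 ACGTG matches, that of NYE2 held 3 with 1 CATGCA, and that of TIP3;1 held 1 ACGTG and 2 overlapping CATGCA. In the NOP5-1 promoter neither core was found, and 1 AAACCCTA was.

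Over all tested genes with a promoter in the reference, CACGTG was found in 17.8% of promoters of genes at least 2-fold higher (299 of 1678). The share was 6.09% for genes at least 2-fold lower (76 of 1248), 6.73% for genes not called and 8.18% for all 15739. ACGTG, which contains the CACGTG matches, was in 38.5% of promoters of higher genes, 22% of lower, 21.8% of genes not called and 23.9% of all. CATGCA was in 10.5% of promoters of higher genes, 7.85% of lower and 7% of all. AAACCCTA was in 1.97% of promoters of higher genes, 3.85% of lower and 3.8% of all. Among genes at least 8-fold higher, 19.7% held CACGTG and 15% CATGCA. Among all 27443 nuclear coding genes of the annotation, 6.49% held CACGTG, 8.43% CATGCA and 4.49% AAACCCTA. A match is a description of the letters in this window, not a site shown to be used.

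**Figure D3:**
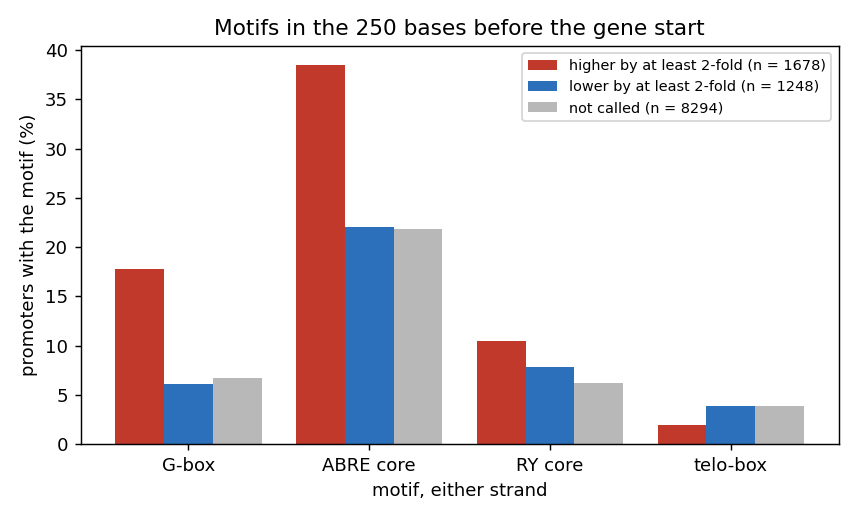
Bars give the share of promoters (%) holding the G-box CACGTG, the abscisic acid response element (ABRE) core ACGTG, the RY core CATGCA or the telo-box AAACCCTA, for genes at least 2-fold higher, at least 2-fold lower or not called. The higher genes have the tallest bars for the first 3 motifs (17.8, 38.5 and 10.5%) and the shortest for the telo-box (1.97%).

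Some of the largest rises were of genes nearly silent in Col-0 embryos. ERD10 (AT1G20450), a dehydrin induced by dehydration and cold, had 0 reads in all 3 Col-0 embryo libraries and 324, 386 and 368 CPM in the mutant. Its rise was at least 2272-fold against a floor of 3 reads per library (adjusted p = 9.98e-10). It was the only one of 128 tested genes with 0 reads in all Col-0 embryo libraries that was called and reached 5 CPM in the mutant. Its neighbour COR47 (AT1G20440), another dehydrin, had 1 read in Col-0 and 951 in the mutant, a ratio of 1091 with a 95% counting interval of 195 to 43122. PUB19 (AT1G60190), a U-box ubiquitin ligase, stood at 0.288, 0.915 and 1.41 CPM in Col-0 and 74.8, 45.8 and 69.8 CPM in the mutant. PUB19 did not overlap between the genotypes and rose with log2 6.21 (adjusted p = 3.38e-07). The boron transporter BOR4 (AT1G15460, log2 6.14), the 6-phosphogluconolactonase PGL1 (AT1G13700, log2 5.94), the oxidoreductase-like MEE25 (AT2G34850, log2 6.33) and the pyrophosphatase PS2 (AT1G73010, log2 4.71) rose too, from means below 2 CPM. ATS3 (AT5G07190), named as an embryo-specific protein, stood at 4.37, 6.94 and 7.61 CPM in Col-0 and 186, 181 and 197 CPM in the mutant. The values were far apart, and it rose with log2 4.90 (adjusted p = 7.11e-09).

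Genes lost from the mutant embryo were fewer at the same size. MSL9 (AT5G19520), a mechanosensitive channel, stood at 10.4, 7.59 and 5.07 CPM in Col-0 and had 0 reads in all 3 mutant libraries. It was at least 42.4-fold lower against the floor of 3 reads per library (adjusted p = 4.08e-05), and the only called gene at 0 in the mutant that reached 5 CPM in Col-0. The brassinosteroid synthesis gene DWF1 (AT3G19820, log2 -4.03), the alpha-galactosidase AGAL1 (AT5G08380, log2 -3.97) and the glycosidase ENGase85A (AT5G05460, log2 -3.89) fell without overlap. UBQ3 (AT5G03240), a polyubiquitin gene, fell from 1847, 2155 and 1802 CPM to 1060, 704 and 845 CPM. The highest mutant value of UBQ3 was below the lowest Col-0 value (log2 -1.15, adjusted p = 0.000158). PCK1 (AT4G37870), which turns oil-derived carbon into sugar, fell from 1269 ± 140 to 319 ± 41.9 CPM (SD, n = 3; log2 -1.99, adjusted p = 2.29e-07).

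**Figure D4:**
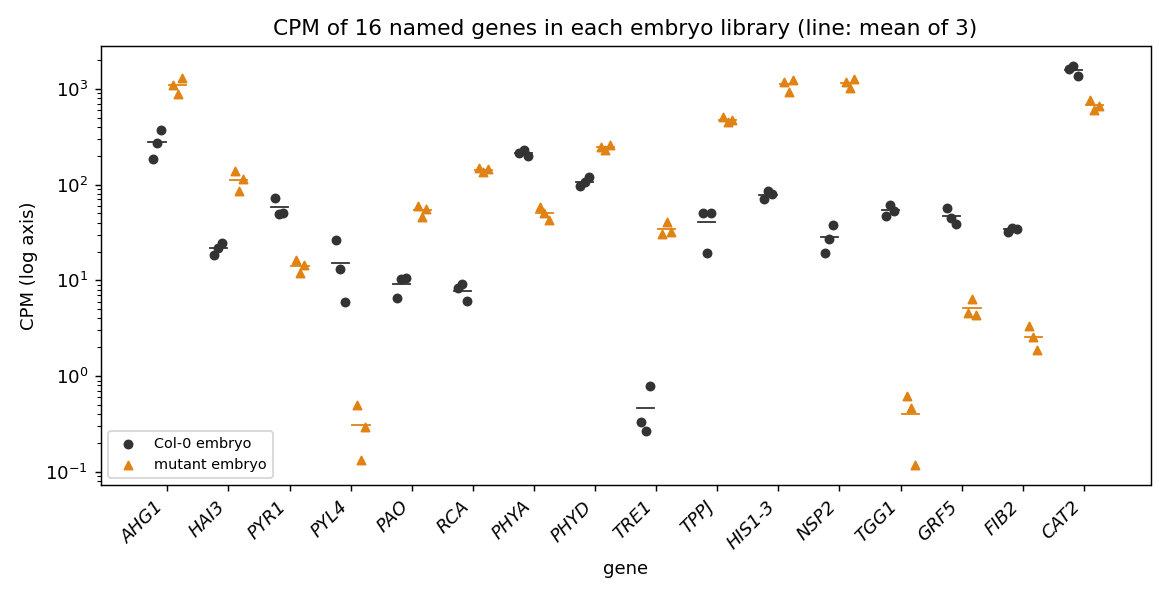
CPM (log axis) of 16 named genes in each library, circles for Col-0 and triangles for mutant embryos, with a line at the mean of 3. In each gene shown the symbols of the genotypes are separate, from TGG1 at 47.4 to 61.7 against at most 0.616 CPM to CAT2 at 1369 to 1732 against 600 to 764 CPM. Since most genes were named for a small p or a large change, this separation largely follows from the choice. Of all tested genes, 57.3% were without overlap.

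Abscisic acid signalling starts with PYR1 and PYL receptors, which on binding the hormone inhibit clade A PP2C phosphatases and so free SnRK2 kinases. The receptors split by gene. Of 13 tested, 4 rose and 4 fell, with a median log2 of 0.27 beside 0.00 over all genes, and with scaling by total reads only, 2 rose and 5 fell. PYR1 (AT4G17870) stood at 73.1, 49.5 and 50.9 CPM in Col-0 and 16.2, 12 and 14.3 CPM in the mutant, and PYL4 (AT2G38310) at 26.7, 13.1 and 5.92 against 0.504, 0.133 and 0.295 CPM. Neither overlapped, and both fell (log2 -2.03, adjusted p = 2.32e-06, and log2 -5.54, adjusted p = 0.000185). PYL11 (AT5G45860) fell as well (log2 -5.10, adjusted p = 6.85e-06). In the other direction PYL13 (AT4G18620) stood at 1.44, 1.61 and 2.48 CPM in Col-0 and 15.5, 13.7 and 12.5 CPM in the mutant. PYL13 rose with log2 2.92 (adjusted p = 5.81e-07), and PYL3 (AT1G73000) went from 2 reads to 139, a ratio of 79.7 with a counting interval of 21.7 to 665.

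The phosphatases moved more nearly together. Of all 9, 6 rose and 1 fell, with a median log2 of 1.5. AHG1 (AT5G51760), which acts in seeds, stood at 187, 272 and 369 CPM in Col-0 and 1083, 886 and 1287 CPM in the mutant. HAI3 (AT2G29380) stood at 18.3, 21.9 and 24.8 CPM and at 137, 86.6 and 113 CPM. Both rose without overlap (log2 1.98, adjusted p = 2.23e-05, and log2 2.38, adjusted p = 3.84e-07), and so did HAI1 (AT5G59220, log2 2.52). ABI1 (AT4G26080), the founding member, stood at 15.1, 27.6 and 23.9 CPM in Col-0 and 11.1, 9.04 and 11.7 CPM in the mutant and fell (log2 -1.06, adjusted p = 0.0018). ACGTG was present in 6 of the 9 phosphatase promoters (66.7%), beside 23.9% of all tested promoters. The share was also 66.7% (14 of 21) for clock genes, of which 6 rose and 6 fell. Of 9 tested SnRK2 kinases, 4 rose and none fell, a share called (44.4%) near the 46.9% of all genes. Only SNRK2.8 (AT1G78290, log2 2.51, adjusted p = 0.00172) changed by 2-fold, and with scaling by total reads only, 1 rose and 2 fell. NCED6 (AT3G24220), an enzyme of abscisic acid synthesis known from the endosperm, stood at 0.624, 0.431 and 1.07 CPM in Col-0 and 26.4, 17.2 and 18.9 CPM in mutant embryos. The mutant values were all higher (log2 4.88, adjusted p = 4.15e-07). The other tested endosperm markers, EPR1 and AGL62, overlapped between genotypes. AGL62 stood at 1.63, 2.21 and 1.24 CPM in Col-0 embryos beside a mean of 1.65 CPM in Col-0 seed coats, so it does not tell the tissues apart.

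Downstream genes of drought and cold responses were called about as often as all genes (46.2% beside 46.9%). Of 13 tested, 5 rose and 1 fell, with a median log2 of 0.51, and with scaling by total reads only, 4 rose and 3 fell. SCRM2 (AT1G12860), a bHLH factor, was the lower gene (log2 -0.65, adjusted p = 0.00227). RD29B (AT5G52300), a desiccation gene with abscisic acid response elements, stood at 327, 471 and 595 CPM in Col-0 and 3592, 2779 and 3660 CPM in the mutant. RD29A (AT5G52310) stood at 21.5, 30.9 and 34.4 CPM and at 258, 229 and 214 CPM. The genotypes lay well apart for both, and both rose (log2 2.85, adjusted p = 1.47e-06, and log2 3.01, adjusted p = 2.93e-07). The LEA protein gene LEA7 (AT1G52690) rose from 358, 447 and 515 CPM to 5336, 4370 and 5128 CPM (log2 3.49, adjusted p = 1.97e-08). KIN2 (AT5G15970), a cold-induced gene, had 0 reads in Col-0 embryos and 142 in the mutant, a rise of at least 18.4-fold (adjusted p = 5.52e-06).

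Aquaporins of the seed vacuole rose with them. Of 14 aquaporins tested, 7 rose and 2 fell, with a median log2 of 0.38 (4 and 3 by total reads only). TIP3;1 (AT1G73190), which sits in the membrane of protein storage vacuoles, stood at 1057, 1261 and 1511 CPM in Col-0 and 3796, 3354 and 3782 CPM in the mutant. It did not overlap and rose with log2 1.51 (adjusted p = 1.68e-05), and TIP3;2 (AT1G17810) rose with log2 1.41. At the plasma membrane PIP1A (AT3G61430) rose with log2 3.12 (adjusted p = 1.86e-07) and PIP1C (AT1G01620) fell (log2 -1.87, adjusted p = 0.000231).

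Most tested genes for losing chlorophyll and most tested genes of the photosynthetic light reactions rose in the same embryos. Of 12 tested genes of chlorophyll breakdown, 10 rose and none fell, with a median log2 of 0.91, and with scaling by total reads only, 6 rose and 2 fell. PAO (AT3G44880), which opens the chlorophyll ring, stood at 6.57, 10.3 and 10.5 CPM in Col-0 and 60.3, 45.7 and 55.3 CPM in the mutant. NYE2 (AT4G11910), a STAY-GREEN protein that removes magnesium, stood at 90.7, 149 and 146 CPM and at 379, 265 and 378 CPM. Neither gene overlapped, and they rose with log2 2.56 (adjusted p = 3.51e-07) and 1.40 (adjusted p = 6.54e-05). The phytol-cleaving PPH (AT5G13800) rose with log2 0.88 (adjusted p = 8.69e-05).

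Of 47 genes of the light reactions, 26 had enough reads to be tested, of which 18 rose and 2 fell, with a median log2 of 1.7. Levels were low. PSBO1 (AT5G66570), a protein of the oxygen-evolving complex, stood at 0.96, 1.13 and 1.07 CPM in Col-0 and 15.9, 13.9 and 14.1 CPM in the mutant. PSBR (AT1G79040), a photosystem II protein, stood at 13.5, 17.8 and 15.8 CPM and at 81.3, 75.5 and 84.1 CPM. The mutant libraries were tightly grouped above Col-0 for both (log2 3.79, adjusted p = 3.05e-08, and log2 2.36, adjusted p = 3.29e-08), and PSBY (AT1G67740) rose with log2 4.21. The antenna gene CAB1 (AT1G29930) fell from 0.528, 0.646 and 0.62 CPM to 0.168, 0 and 0.118 CPM (log2 -2.48, adjusted p = 0.00543). Its value is uncertain because it has close copies and reads placed at several loci were not counted. Since a gene could pass the filter through the group where it was high, these counts over tested members are descriptions.

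Carbon fixation and chlorophyll synthesis were mixed. Of 17 tested genes of the Calvin cycle and Rubisco, 8 rose and 3 fell, with a median log2 of 0.27 (6 and 4 by total reads only). RCA (AT2G39730), the activase of Rubisco, stood at 8.25, 9.15 and 6.03 CPM in Col-0 and 150, 134 and 146 CPM in the mutant. RCA did not overlap and rose with log2 4.2 (adjusted p = 1.72e-09), and SBPASE (AT3G55800) rose with log2 3.31. The Rubisco small subunit RBCS1A (AT1G67090) fell (log2 -0.68, adjusted p = 0.001). Of 16 tested genes of chlorophyll synthesis, 6 rose and 3 fell, with 56.2% called beside 46.9% of all genes. With scaling by total reads only, 3 rose and 5 fell. PORC (AT1G03630), a light-dependent reductase of this route, stood at 0.72, 0.538 and 0.338 CPM in Col-0 and 20.1, 16.3 and 20.8 CPM in the mutant. PORC rose with log2 5.12 (adjusted p = 2.15e-07), while the methyltransferase CHLM (AT4G25080) fell (log2 -1.33, adjusted p = 0.000222). From the plastid genome, 60 of 133 genes were tested, 3 rose and 11 fell, with a median log2 of -0.38. That is 23.3% called, beside 46.9% of all genes, but by total reads only none rose and 29 fell, and these libraries were made from poly(A) RNA.

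Light receptors changed in opposite directions. Of 20 genes of light signalling, all tested, 7 rose and 8 fell, with a median log2 of 0.03 (5 and 10 by total reads only). PHYA (AT1G09570), the phytochrome that triggers germination at very low light, stood at 213, 227 and 200 CPM in Col-0 and 59, 50.4 and 43 CPM in the mutant. PHYD (AT4G16250) stood at 95.9, 106 and 119 CPM and at 247, 229 and 260 CPM. Neither overlapped: PHYA fell (log2 -2.07, adjusted p = 1.08e-07), and PHYD and PHYE (AT4G18130) rose (log2 1.2, adjusted p = 2.54e-06, and log2 1.12, adjusted p = 7.71e-06). PIL5 (AT2G20180), also called PIF1, which holds back germination in darkness, stood at 78.7, 100 and 68.3 CPM in Col-0 and 30.6, 27 and 32.1 CPM in the mutant. It fell without overlap (log2 -1.46, adjusted p = 3.27e-05). HFR1 (AT1G02340), a bHLH protein that restrains such factors, had 0 reads in Col-0 and 4.59, 2.72 and 3.42 CPM in the mutant, a rise of at least 22.6-fold (adjusted p = 5.71e-06).

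Among 21 tested clock genes 6 rose and 6 fell, with 57.1% called beside 46.9% of all genes. With scaling by total reads only, 4 rose and 9 fell. GI (AT1G22770) stood at 50, 51.1 and 45.2 CPM in Col-0 and 131, 129 and 114 CPM in the mutant and rose (log2 1.35, adjusted p = 1.92e-07). PRR9 (AT2G46790, log2 1.73) and LNK1 (AT5G64170, log2 1.24) rose, and PRR5 (AT5G24470, log2 -1.63) and TOC1 (AT5G61380, log2 -0.52) fell. The sources used here do not give the hour at which seeds were taken.

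Genes of the translation machinery were lower. Of 141 tested genes whose annotated name is that of a ribosomal protein of the eukaryote type, 87 fell and 9 rose, with a median log2 of -0.44. Only 13 fell and 1 rose by 2-fold. AT4G34670, for a protein of the small subunit, stood at 146, 141 and 128 CPM in Col-0 and 72.9, 73.9 and 64.6 CPM in the mutant. AT3G02080 stood at 62.2, 58 and 61.4 CPM and at 33.3, 31.1 and 29.8 CPM. The genotypes were separate for both, and both fell (log2 -0.97, adjusted p = 7.17e-06, and log2 -0.95, adjusted p = 5.5e-06), as did AT5G22440 (log2 -1.52, adjusted p = 5.53e-06). Ribosomal proteins are encoded by several similar genes each, so single values are uncertain where reads fit more than 1 copy. AAACCCTA was found in 26 of their 141 promoters, or 18.4%, beside 3.8% of all tested promoters.

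Listed genes for nucleolar proteins that assemble ribosomes mostly fell too. Of 11 such genes, listed after values were seen, 10 fell and 1 rose, with a median log2 of -1.0. Because of that late listing, this median cannot be ranked against that of the ribosomal proteins. NOP5-1 (AT5G27120), a core protein of box C/D small nucleolar ribonucleoproteins, stood at 123, 118 and 111 CPM in Col-0 and 46.4, 36.9 and 37.7 CPM in the mutant. FIB2 (AT4G25630), a fibrillarin that methylates ribosomal RNA, stood at 32.3, 35 and 34.7 CPM and at 3.3, 2.59 and 1.89 CPM. Both fell without overlap (log2 -1.54, adjusted p = 2.32e-07, and log2 -3.70, adjusted p = 4.79e-07), and NOP5-2 (AT3G05060) fell with log2 -1.46. The nucleolin NUC-L2 (AT3G18610) rose (log2 1.14, adjusted p = 0.0157), but not with scaling by total reads only (adjusted p = 0.0722), without Col-0 library 1 (0.0549) or without mutant library 2 (0.0635). The ribosomal RNA genes of the annotation took 0.308, 0.434 and 0.478% of gene reads in Col-0 libraries and 0.142, 0.181 and 0.122% in mutant ones. These shares were separate (exact permutation p = 0.10, two-sided), in libraries selected for poly(A). Chaperonins of the TCP-1 and cpn60 type fell in 8 of 14 and rose in none, for example AT5G16070 (log2 -1.33, adjusted p = 4.25e-06).

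**Figure D5:**
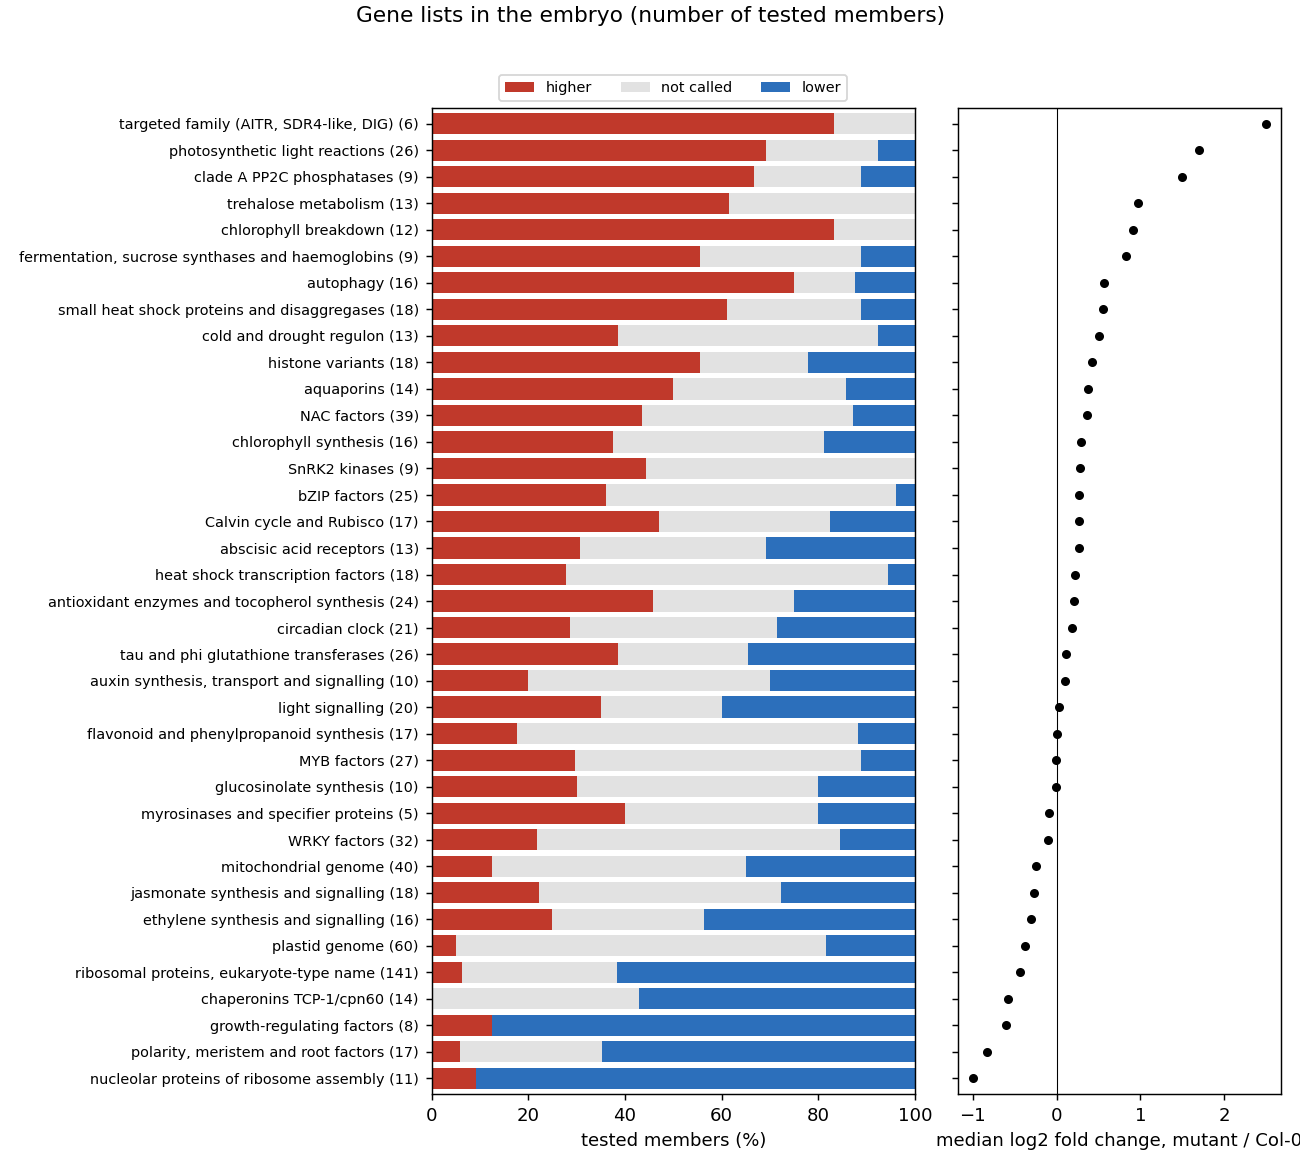
Left, share of the tested members of each gene list called higher, not called or lower (%), with the number tested in brackets. Right, the median log2 fold change of mutant over Col-0, which runs from -1.0 for nucleolar proteins to 1.7 for the light reactions and 2.5 for the targeted family. Nucleolar proteins and growth-regulating factors were listed after values were seen, and medians cover tested members only.

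Growth regulators and patterning factors fell in most cases. Of 8 tested growth-regulating factors and their partner, also listed after values were seen, 7 fell and 1 rose. GRF5 (AT3G13960), which promotes leaf cell proliferation, stood at 57.1, 44.9 and 38.9 CPM in Col-0 and 4.59, 6.44 and 4.37 CPM in the mutant. Its coactivator GIF1 (AT5G28640) stood at 147, 156 and 101 CPM and at 39.2, 28.4 and 26.2 CPM. Both fell without overlap (log2 -3.2, adjusted p = 3.62e-06, and log2 -2.11, adjusted p = 2.31e-05), and GRF3 (AT2G36400) fell with log2 -3.61. GRF7 (AT5G53660), known as a repressor of stress-responsive genes, rose from 0.288, 0.915 and 1.52 CPM to 21.6, 15.7 and 24.6 CPM (log2 4.53, adjusted p = 2.68e-06).

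Of 17 tested factors of polarity, meristem and root, 11 fell and 1 rose, with a median log2 of -0.83. ZPR3 (AT3G52770), a small inhibitor of HD-ZIP III factors, stood at 9.93, 7.86 and 4.28 CPM in Col-0 and 0.28, 0.199 and 0.354 CPM in the mutant. It fell without overlap (log2 -4.68, adjusted p = 9.68e-07), as did the root factor SCR (AT3G54220, log2 -1.15) and AIL7 (AT5G65510, log2 -1.40). BBM (AT5G17430), an AP2 factor that can induce embryos, was the member that rose, from 9.07, 7.8 and 8.06 CPM to 28.9, 33.9 and 31.4 CPM (log2 1.92, adjusted p = 7.48e-06). Of 10 tested auxin genes, 2 rose and 3 fell, with 50% called beside 46.9% of all genes. The auxin exporter PIN4 (AT2G01420) stood at 1.01, 1.4 and 1.52 CPM in Col-0 and 20, 17.3 and 17.1 CPM in the mutant. Its groups were far apart, and it rose with log2 3.79 (adjusted p = 1.47e-06). YUC2 (AT4G13260), an auxin synthesis enzyme, went from 3 reads to 129, a ratio of 49.3 with a counting interval of 16.5 to 242.

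Trehalose metabolism, which is tied to sugar signalling, had no falling member. Of 13 tested genes, 8 rose and none fell, with a median log2 of 0.97. TRE1 (AT4G24040), the trehalase that splits trehalose, stood at 0.336, 0.269 and 0.789 CPM in Col-0 and 30.6, 40.9 and 31.6 CPM in the mutant. TPPJ (AT5G65140), which makes trehalose from its phosphate, stood at 50.4, 19.4 and 51 CPM and at 506, 448 and 474 CPM. Each rose without overlap (log2 6.21, adjusted p = 4.03e-09, and log2 3.56, adjusted p = 8.5e-06), and the synthase-like TPS8 (AT1G70290) rose with log2 0.97. Among fermentation genes, sucrose synthases and haemoglobins 5 of 9 tested rose and 1 fell. ADH1 (AT1G77120), alcohol dehydrogenase, stood at 358, 443 and 544 CPM in Col-0 and 1265, 1032 and 1356 CPM in the mutant and rose (log2 1.44, adjusted p = 8.3e-05), with PDC2 (AT5G54960, log2 0.72) and SUS3 (AT4G02280, log2 0.86). The haemoglobin HB2 (AT3G10520) fell (log2 -4.2, adjusted p = 1.63e-05).

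Small heat shock proteins and disaggregases rose in 11 of 18 and fell in 2, with a median log2 of 0.56 (7 and 3 by total reads only). AT1G53540 stood at 148, 171 and 180 CPM in Col-0 and 395, 420 and 442 CPM in the mutant, and rose without overlap (log2 1.33, adjusted p = 1.17e-06), as did AT2G29500 (log2 1.09). Of 18 heat shock factors tested, 5 rose and 1 fell (33.3% called, beside 46.9% of all genes). With scaling by total reads only, 3 rose and 4 fell. HSFA9 (AT5G54070), the heat shock factor of seed development, stood at 67.5, 120 and 126 CPM in Col-0 and 356, 259 and 341 CPM in the mutant. It rose with log2 1.61 (adjusted p = 9.75e-05), HSFA7A (AT3G51910) with 2.48, while HSFB4 (AT1G46264), a root factor, went from 90 reads to 1, a ratio of 78.5 with an interval of 13.7 to 3134.

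Antioxidant genes rose in 11 of 24 and fell in 6, a majority that turned to 7 higher and 9 lower when scaled by total reads only. DHAR1 (AT1G19570), which regenerates ascorbate, stood at 71, 73.2 and 67 CPM in Col-0 and 263, 214 and 258 CPM in the mutant. CAT2 (AT4G35090), a peroxisomal catalase, stood at 1615, 1732 and 1369 CPM and at 764, 600 and 656 CPM. The separation was complete in both, DHAR1 rising with log2 1.80 (adjusted p = 3.57e-08), like the peroxidase APX3 (AT4G35000, log2 1.72), and CAT2 falling with log2 -1.22 (adjusted p = 8.69e-06). Tau and phi glutathione transferases, which conjugate glutathione to reactive compounds, split into 10 higher and 9 lower of 26 tested, 8 and 9 of them by 2-fold. GSTF9 (AT2G30860) rose from 69.7, 62.1 and 65.9 CPM to 460, 396 and 455 CPM (log2 2.73, adjusted p = 9.31e-09) and ERD9 (AT1G10370) rose with log2 4.50. GSTU19 (AT1G78380) fell from 1211, 1189 and 1188 CPM to 403, 507 and 349 CPM (log2 -1.51, adjusted p = 1.54e-06) and GSTF3 (AT2G02930) fell with log2 -3.11. All 4 were without overlap, as were 57.3% of all tested genes.

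Among 18 tested histone genes 10 rose and 4 fell, with a median log2 of 0.42 (7 and 5 by total reads only). HIS1-3 (AT2G18050), a linker histone induced by drought, stood at 70.5, 85.3 and 80 CPM in Col-0 and 1172, 935 and 1245 CPM in the mutant. Its lowest mutant value was above all Col-0 values (log2 3.83, adjusted p = 6.32e-09). The H2A gene HTA7 (AT5G27670) rose with log2 1.56 (adjusted p = 2.17e-07). The H3 genes AT5G10400 and AT5G10390 fell (log2 -1.02 and -1.09), and both are uncertain since they are near-identical. Autophagy genes, which deliver cell contents to the vacuole, rose in 12 of 16 and fell in 2, with a median log2 of 0.57 (7 and 2 by total reads only). ATG8I (AT3G15580) stood at 68.7, 74.4 and 78.4 CPM in Col-0 and 154, 141 and 164 CPM in the mutant and rose (log2 1.05, adjusted p = 6.08e-06), and ATG8B (AT4G04620) fell (log2 -0.65, adjusted p = 0.00351).

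Defence metabolism changed in a few genes by large factors. In crucifers the myrosinases hydrolyse glucosinolates, and specifier proteins set the product. NSP2 (AT2G33070), a nitrile specifier, stood at 19.5, 27.2 and 37.8 CPM in Col-0 and 1189, 1013 and 1258 CPM in the mutant. TGG1 (AT5G26000), a myrosinase, stood at 47.4, 61.7 and 53.4 CPM and at 0.616, 0.465 and 0.118 CPM. They moved apart without overlap, NSP2 rising (log2 5.36, adjusted p = 2.42e-08) and TGG1 falling (log2 -7.05, adjusted p = 9.44e-08), and NSP5 (AT5G48180) rose with log2 1.83. Of 10 tested glucosinolate synthesis genes 3 rose and 2 fell, with 50% called beside 46.9% of all genes. Among them the regulator MYB34 (AT5G60890) went from 2 reads to 493, a ratio of 283 with an interval of 77.8 to 2341. Of 17 tested flavonoid and phenylpropanoid genes, 12 were not called, which leaves 29.4% called beside 46.9% of all genes. C4H (AT2G30490, log2 1.09) and TT5 (AT3G55120, log2 2.7), early enzymes, rose. F3H (AT3G51240), the enzyme after them, stood at 3.17, 5.76 and 6.09 CPM in Col-0 and 0.168, 0.531 and 0.354 CPM in the mutant, and fell (log2 -3.83, adjusted p = 1.08e-05).

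Other hormone routes had few consistent directions. Of 16 tested ethylene genes 4 rose and 7 fell. The synthase ACS2 (AT1G01480) stood at 16.7, 21.3 and 29 CPM in Col-0 and 75.1, 74.3 and 77 CPM in the mutant and rose (log2 1.76, adjusted p = 4.96e-06). The receptor ETR2 (AT3G23150, log2 -2.32, adjusted p = 6.35e-06) and the transcription factor EIN3 (AT3G20770, log2 -0.62, adjusted p = 0.000131) fell. Of 18 tested jasmonate genes 4 rose and 5 fell (3 and 8 by total reads only), with 50% called beside 46.9% of all genes. The synthesis enzymes OPR3 (AT2G06050, log2 -2.66, adjusted p = 1.52e-05) and AOS (AT5G42650, log2 -1.44, adjusted p = 0.000109) fell, and the repressor JAZ3 (AT3G17860, log2 1.5, adjusted p = 9.8e-06) rose.

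Of 350 tested genes annotated as transcription factors by symbol, 115 rose and 69 fell, 52.6% beside 46.9% of all genes. NAC factors rose in 17 of 39 and fell in 5 (56.4% called), and by total reads only 13 rose and 10 fell. NAC019 (AT1G52890), a stress-induced factor, rose from 6.67, 8.07 and 8.51 CPM to 27.1, 29.8 and 23.1 CPM (log2 1.78, adjusted p = 8.63e-06). Of 25 bZIP factors 9 rose and 1 fell (40% called), but with scaling by total reads only, 3 rose and 10 fell. bZIP1 (AT5G49450), a factor of energy starvation, rose (log2 1.55, adjusted p = 0.000128) and GBF6 (AT4G34590) fell (log2 -2.39, adjusted p = 0.00127). WRKY25 (AT2G30250), a stress factor, stood at 3.02, 1.61 and 2.03 CPM in Col-0 and 16.7, 26.3 and 16.6 CPM in the mutant and rose (log2 3.14, adjusted p = 2.98e-06). Its family had 7 higher and 5 lower of 32 (37.5% called), which became 7 and 7 with RLE scaling and 4 and 10 by total reads only. The homeodomain factor HB-7 (AT2G46680), induced by abscisic acid, rose from 1.39, 1.61 and 1.58 CPM to 17.4, 13.8 and 15.9 CPM (log2 3.36, adjusted p = 5e-07). MYB112 (AT1G48000) went from 3 reads to 146, a ratio of 55.8 with an interval of 18.7 to 274. CGA1 (AT4G26150), a GATA factor that promotes chloroplast growth, fell from 19, 26.7 and 16 CPM to 1.57, 3.65 and 1.59 CPM (log2 -3.19, adjusted p = 5.69e-06).

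Grouped by product name, some families outside these lists are given as counted after values were seen, beside 25.4% higher and 21.4% lower over all genes. GDSL lipases had 5 higher and 10 lower of 21 (median log2 -1.12), and leucine-rich receptor-like kinases 1 higher and 8 lower of 15 (median -0.99). UDP-glycosyltransferases had 22 higher and 5 lower of 46 (median 0.47) and alpha/beta-hydrolases 50 higher and 14 lower of 113 (median 0.28).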

How the data were processed

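The deposited values are gene counts, per the file headers. The submitters' processing notes name bcl2fastq 2.19 and fastp 0.12.4, and STAR 2.7.9a with TAIR10, and per the labels' protocols libraries were stranded, poly(A)-selected and had molecular-identifier adaptors. The sources used here do not say whether duplicates were removed. The combined table equalled the reverse-strand column of all 12 per-library tables, and 4 summary entries were removed. Of its 32833 entries, 32548 were in the TAIR10.1 annotation, which gave names and promoters.

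The test was the quasi-likelihood F test of edgeR 4.0.16 in R 4.3.3, on all 12 libraries with 4 group means, after filterByExpr (minimum count 10, minimum total 15) and TMM scaling. A call meant a Benjamini-Hochberg adjusted p under 0.05 over 16238 genes. The mutant effect in the embryo minus that in the seed coat was tested in the same model, and shares of reads by an exact permutation test. Groups at 0 reads were set to a floor of 3 reads per library. With 1 to 3 reads a ratio with its 95% counting interval is given, and both cover counting error only. On simulated data the workflow found 74% of the embryo changes of 2-fold and 94% of those of 4-fold, and 6 of 150 calls were false, with few genes changed. The replicates are labelled biological, and the sources used here do not say whether plants were pooled.

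The comparison, the gene lists and the naming rule were chosen with earlier results of these data known. The rule picked the targeted family and the 15 largest changes each way among called, named genes of at least 5 CPM without overlap. It also picked the 10 largest rises and falls in CPM among called genes without overlap. The 3 smallest p each way per list and the 10 largest changes each way among factors were added. Where a part of the rule asked for no overlap, the separation of the genes follows from the choice. The text names a part of the genes picked. Alternatives were other scalings (RLE, total reads only, TMM without the 100 most abundant genes), no filter, unstranded counts, DESeq2 1.42.0, embryo libraries only, a replicate block and leaving out each embryo library.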

Additional observations from a re-analysis of the deposited data

Results flagged for a closer look

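For 33 of the 129 genes named, the mutant effect in the embryo differed from that in the seed coat of the same seeds by the test of the difference itself (edgeR, adjusted p under 0.05). Over all tested genes this held for 932, or 5.74%. Most genes were named for a large embryo change or a small p. The embryo change is part of the difference, so these shares cannot be compared. Values in brackets are the log2 fold change of the embryo, that of the seed coat, and the first minus the second.

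Signs in the seed coat were not tested on their own, and for NSP2 (-0.02) and GBF6 (0.04) the fitted change there was very small. In 9 genes, these included, that change had the opposite sign. These were NSP2 (5.36 and -0.02, difference 5.38, adjusted p = 4.16e-06), SESA5 (-0.83 and 0.63, difference -1.46, adjusted p = 0.00355), PAP85 (-0.59 and 1.03, difference -1.62, adjusted p = 0.00258) and RBCS1A (-0.68 and 0.58, difference -1.26, adjusted p = 0.00476), and further PIP1C (-1.87 and 0.31, difference -2.18, adjusted p = 0.0416), AT1G53540 (1.33 and -0.47, difference 1.80, adjusted p = 4.48e-05), AT2G29500 (1.09 and -0.25, difference 1.34, adjusted p = 0.00041), ATG8B (-0.65 and 0.37, difference -1.02, adjusted p = 0.0118) and GBF6 (-2.39 and 0.04, difference -2.43, adjusted p = 0.0437). 

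A larger rise in the embryo was found for LEA7 (3.49 and 1.08, difference 2.41, adjusted p = 7.01e-05), PYL3 (6.01 and 3.34, difference 2.66, adjusted p = 0.0291), PYL13 (2.92 and 1.65, difference 1.27, adjusted p = 0.0276), PPH (0.88 and 0.11, difference 0.77, adjusted p = 0.0211), TRE1 (6.21 and 3.01, difference 3.19, adjusted p = 0.000112) and RD29A (3.01 and 0.78, difference 2.23, adjusted p = 0.000723). The same held for KIN2 (8.43 and 2.8, difference 5.63, adjusted p = 0.0117), ERD9 (4.50 and 3.11, difference 1.39, adjusted p = 0.00554), HTA7 (1.56 and 0.22, difference 1.34, adjusted p = 0.000196), MYB112 (5.59 and 2.85, difference 2.73, adjusted p = 0.0147), ERD10 (15.38 and 9.43, difference 5.96, adjusted p = 0.00102), MEE25 (6.33 and 2.33, difference 4.0, adjusted p = 0.00519), NCED6 (4.88 and 2.62, difference 2.26, adjusted p = 0.019) and PS2 (4.71 and 2.77, difference 1.94, adjusted p = 0.023). A smaller rise in the embryo than in the seed coat was found for RCA (4.2 and 5.53, difference -1.33, adjusted p = 0.0024), BBM (1.92 and 4.07, difference -2.15, adjusted p = 0.0254) and HIS1-3 (3.83 and 4.94, difference -1.11, adjusted p = 0.00889). A larger fall in the embryo was found for AT5G22440 (-1.52 and -0.53, difference -0.98, adjusted p = 0.0196), ZPR3 (-4.68 and -2.18, difference -2.50, adjusted p = 0.0127), GSTF3 (-3.11 and -0.84, difference -2.27, adjusted p = 0.000181), F3H (-3.83 and -0.56, difference -3.27, adjusted p = 0.00333) and AGAL1 (-3.97 and -1.25, difference -2.71, adjusted p = 0.0447), and a smaller fall for GSTU19 (-1.51 and -2.72, difference 1.21, adjusted p = 0.00235) and ETR2 (-2.32 and -3.63, difference 1.31, adjusted p = 0.0477). ERD10 and KIN2 had 0 reads in Col-0 embryos, so their fitted differences depend on the prior count.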

How the results depend on the processing

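Over the alternatives, 91 counts of calls stayed within 1.5 times of the values reported and 6 did not. Scaled by total reads only, 2296 genes were higher and 6882 lower, 1134 and 2399 of them by 2-fold. Leaving out single embryo libraries gave 6320 to 7237 calls, 3353 to 3861 higher, 2723 to 3376 lower, 1646 to 1784 higher by 2-fold and 1158 to 1534 lower by 2-fold, and 476 to 844 genes for the difference between tissues (476 without mutant library 1, 563 without mutant library 3, beside 932). Of 128 named genes called, 2 lost their call under some alternative, PAP85 and NUC-L2, with the values given beside them, and none changed direction. Since most were named for a small p or a large change, this does not speak for called genes in general. Same-numbered libraries of the genotypes did not deviate together (r = -0.298, -0.467 and -0.0626), so the number gives no pairing, and with a replicate block 7483 genes were called (4101 higher, 3382 lower).

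The median of a list minus that of all genes stayed within the spread between replicates (1 SD) in 416 cases, moved further without changing sign in 86, of which 58 left out a single library, and changed sign in 16. For glucosinolate synthesis it was 0.04 and 0.05 without Col-0 library 1 and 3, 0.02 and 0.03 without mutant library 1 and 3, and -0.11 without mutant library 2. For myrosinases and specifier proteins it was 0.86 with embryo libraries only, and for light signalling -0.01 without a filter and -0.05 without mutant library 1. Over single libraries left out it ran from -0.7 to 0.09 for jasmonate, -0.14 to 0.45 for glutathione transferases (-0.06 without mutant library 2), -0.25 to 0.17 for WRKY and -0.45 to 0.36 for MYB factors. For MYB factors it was 0.02 with unstranded counts, 0.07 without Col-0 library 3, and 0.29 and 0.1 without mutant library 1 and 3. The cause was not tested. With 3 libraries per genotype, 1.5-fold changes were recovered in 20% of simulated cases, so a gene not called may still differ.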
